A study of Mus musculus with 24 samples.

Results

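The miR-19 site peaks were the Argonaute 2 (AGO2) binding peaks whose sequence held a seed match to the microRNA miR-19 and none to miR-155. Seed matches were of 7 or 8 nt, and members were chosen by these letters alone, without regard to reads. There were 444 such peaks among the 14634 in the authors' deposited table, 3.03% of the total. They lay in the 3' untranslated regions (3' UTRs) of 414 of 4165 genes, 9.94%. A further 2 peaks that held sites of both microRNAs were left out. They were peak 2 of Cdt1, with 11.0 scaled reads in miR-155 KO and 37.7 in WT cells, and peak 1 of Map3k8, with 23.2 in KO and 5.37 in WT cells.

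The peaks came from HITS-CLIP, in which AGO2 is crosslinked to RNA in cells, immunoprecipitated, and the bound RNA fragments sequenced. The miR-155 KO group had 12 libraries from CD4+ T cells of C57BL/6 mice that lack miR-155, and the WT group had 12 libraries from CD4+ T cells of C57BL/6 mice that carry it. All cells were isolated from spleen and lymph nodes with CD4 beads and activated in culture for 4 days, with 20 U/mL of IL-2 and 1 µg/mL of antibodies against CD3 and CD28, so no resting cells were compared. KO replicates 1 to 6 carried linker 1 and 7 to 12 linker 2, and WT replicates the reverse. The table gives 1 pooled value per genotype and peak, so no value below has a replicate error, and neither linkers nor libraries can be told apart in it. Of 12 CD4 T cell marker genes 11 had a peak, all but Cd40lg. Of 11 B cell markers 2 had peaks, with 13.5 reads in KO and 10.5 in WT cells, and of 11 myeloid markers 1 had a peak, Mpeg1, which was listed at 0 in KO cells and had 122 reads in WT cells, at a peak that held a miR-155 site. None of 11 CD8 and NK cell markers had a peak, and of 10 erythroid and platelet markers only Tfrc did. Tfrc encodes the transferrin receptor, which activated T cells also make. What part cells other than CD4 T cells had in these reads was not tested.

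A microRNA guides AGO2 to messenger RNAs mainly by pairing of its seed, the bases near its 5' end, with matching letters in the 3' UTR, and the bound messenger RNA is repressed. miR-19a and miR-19b are encoded with miR-17, miR-18a, miR-20a and miR-92a in the miR-17-92 cluster, which is transcribed as a single primary RNA and induced in activated T cells. miR-19 is known for promoting proliferation and cytokine production in lymphocytes. In mouse GRCm38.p6 the hairpins of miR-19a and miR-19b-1 lie at chr14:115044000-115044081 and chr14:115044305-115044391 on the plus strand, and a second copy of miR-19b, miR-19b-2, lies at chrX:52741983-52742066 on the minus strand. The mature sequences below, from RefSeq, show the seed that defined the members beside those of 2 other cluster families and of miR-155, with bases 2 to 8 in capitals.
mmu-miR-19a-3p: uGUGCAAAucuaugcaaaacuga
mmu-miR-19b-3p: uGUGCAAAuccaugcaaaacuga
mmu-miR-17-5p: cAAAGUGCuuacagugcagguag
mmu-miR-92a-3p: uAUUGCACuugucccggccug
mmu-miR-155-5p: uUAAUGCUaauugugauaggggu
miR-19a and miR-19b share the seed, so a member is a site of either. They differ by C11U, counted from the 5' end of miR-19b with its base first. Bases 2 to 7 of miR-19 (GUGCAA) are the reverse complement of bases 3 to 8 of miR-92a (UUGCAC), although both microRNAs come from the same cluster.

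The sites themselves are shown next for the 5 most-read members and for members in genes known from earlier work as miR-19 targets or regulators of T cell signalling. Each line runs 5' to 3' on the messenger RNA, from up to 15 nt before the site to the base opposite the first base of miR-19, and capitals mark the seed match. Sequences are those of the deposited table, and positions are exact matches on GRCm38 through GENCODE M21 transcripts, not the authors' mm9 coordinates.
Itpkb peak 4: ttttttgttttaaTTGCACA
Jarid2 peak 1: aggatacaagctgtcTTTGCACt
Itgav peak 6: gaccatcagtaagTTTGCACA
Tnip1 peak 1: gttgctaggcagccgTTTGCACA
Fosl2 peak 12: aagcctacaggaTTTGCACt
Socs1 peak 3: catattcccagtatcTTTGCACA
Tgfbr2 peak 1: caacagccaataacgTTTGCACt
Cyld peak 1: tttaataagaagcatTTTGCACt
Tnfaip3 peak 13: agaaagtttgtgaaaTTTGCACA
Atxn1 peak 6: taaagaactttgcgaTTTGCACA
The Itpkb site, at chr1:180424428-180424434 on the plus strand, is a 7mer-A1, a match to bases 2 to 7 followed by A. The Jarid2 site, at chr13:44920037-44920043 on the plus strand, is a 7mer-m8, a match to bases 2 to 8 with no A after it, as are those of Fosl2 (chr5:32157670-32157676, plus), Tgfbr2 (chr9:116090077-116090083, minus) and Cyld (chr8:88747199-88747205, plus). The remaining sites are 8mers, with both features: Itgav (chr2:83803748-83803755, plus), Tnip1 (chr11:54910819-54910826, minus), Socs1 (chr16:10783932-10783939, minus), Tnfaip3 (chr10:19001016-19001023, minus) and Atxn1 (chr13:45555468-45555475, minus). All 10 lie in annotated 3' UTRs, in the last exon of the transcript.

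Members were read more deeply than the average peak. Scaled reads, pooled over a genotype's libraries and summed over both genotypes, had a median of 26.5 per member (quartiles 10.6 and 67.9), against 17.05 (7.90 and 40.9) over all peaks. Peaks with sites of miR-17 (538 peaks) had a median of 28.5 and those of miR-25/92 (406 peaks) 32.3. The 85 peaks with sites of miR-18, also of the cluster, had 19.1. The 265 miR-155 site peaks also had 19.1 over both genotypes, but 155 of them were listed at 0 in KO cells. In WT cells alone the median of miR-155 site peaks was 16.05, against 14.84 in members. In KO cells it was 0, against 11.97 in members. Families outside the cluster were as well read, such as miR-142-3p with a median of 35.0 and miR-15/16 with 27.7. Widths were nearly equal, with a median of 40 nt in members and 39 nt in all peaks, and per nt members had 0.595 reads, against 0.432. Members held 12082 reads in KO and 12672 in WT cells, 3.23% of all KO reads and 3.41% of all WT reads. The site words were commoner among well-read peaks: they stood in 5.02% of the 2990 peaks with 50 or more reads, in 3.05% of all peaks, and in 2.14% of the 4730 peaks under 10 reads. The reverse complements of these words showed the same order, at 3.21%, 1.97% and 1.29%, with a median of 30.004 reads. The rise with reads was thus not seen for miR-19 matches alone. These reverse complements hold GTGCAA, the match to bases 3 to 8 of miR-92a, and so are not a neutral control. These are descriptions of 1 pooled table, with no test.

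**Figure D1:**
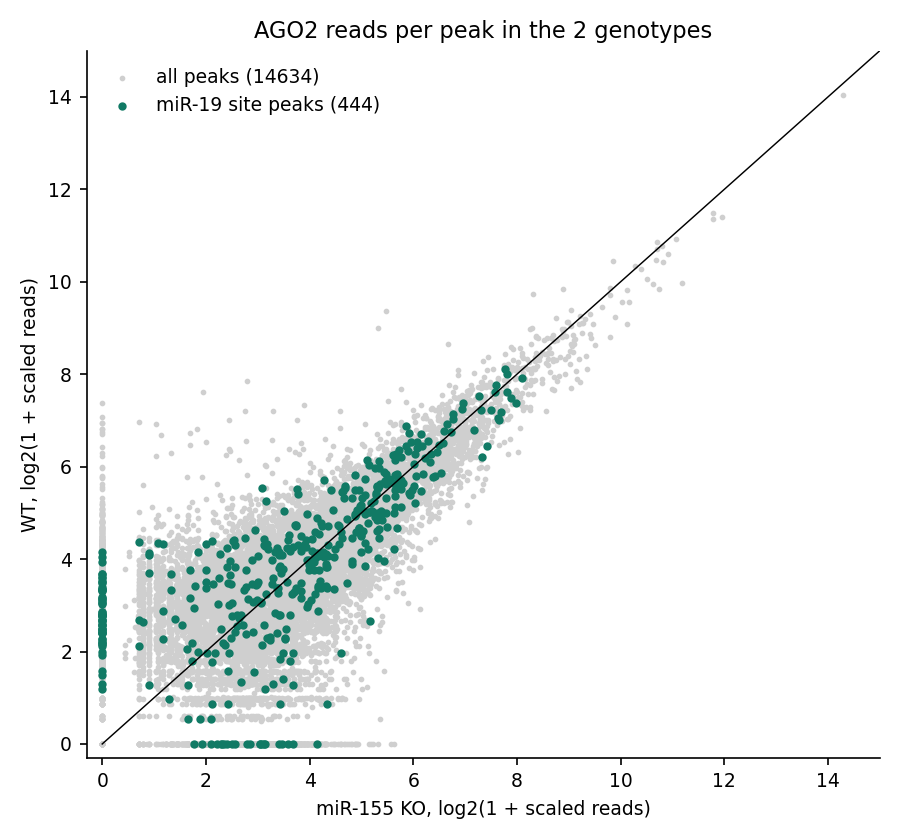
Each point is 1 AGO2 peak, with log2(1 + scaled reads) pooled over 12 miR-155 KO libraries on the x axis and over 12 WT libraries on the y axis; grey points are all 14634 peaks, green points the 444 miR-19 site peaks, and the line marks equal reads. Green points lie along the line, with a wide scatter among peaks with few reads and 59 members (13.3%) listed at 0 in KO cells and 22 (4.95%) in WT cells, where all peaks had 16.6% and 7.87%.

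The reads were spread over many genes. The 20 most-read members held 28.5% of all member reads. Peak 4 of Itpkb, which encodes a kinase that turns inositol trisphosphate into inositol tetrakisphosphate in lymphocyte receptor signalling, was the most read, with 271 reads in KO and 240 in WT cells. Peak 1 of Jarid2, a cofactor of Polycomb repressive complex 2, had 218 reads in KO and 277 in WT cells. Peak 6 of Itgav, the integrin alpha V subunit, had 224 in KO and 254 in WT cells. These peaks had their reads nearly evenly divided between the genotypes. Peak 1 of Tnip1, which encodes a binding partner of A20 that restrains NF-kB, had 223 reads in KO and 195 in WT cells. Peak 12 of Fosl2, an AP-1 transcription factor, had 252 in KO and 165 in WT cells. Among the other 15, peak 2 of Fam102a had the most uneven reads, 171 in KO and 86.8 in WT cells. The 20 also held peaks of membrane transport genes. Peak 2 of Vps37a, an ESCRT-I subunit, had 235 reads in KO and 177 in WT cells, peak 14 of Eea1, an early endosome tether, had 198 in KO and 131 in WT cells, and peak 1 of Cltc, the clathrin heavy chain, had 158 in KO and 148 in WT cells. Peak 2 of Bhlhe40, a transcription factor of activated T cells, had 180 reads in KO and 149 in WT cells, and peak 7 of S1pr1, the receptor that lets lymphocytes leave lymphoid organs, had 108 in KO and 130 in WT cells. None of the 20 was called different between genotypes.

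**Figure D2:**
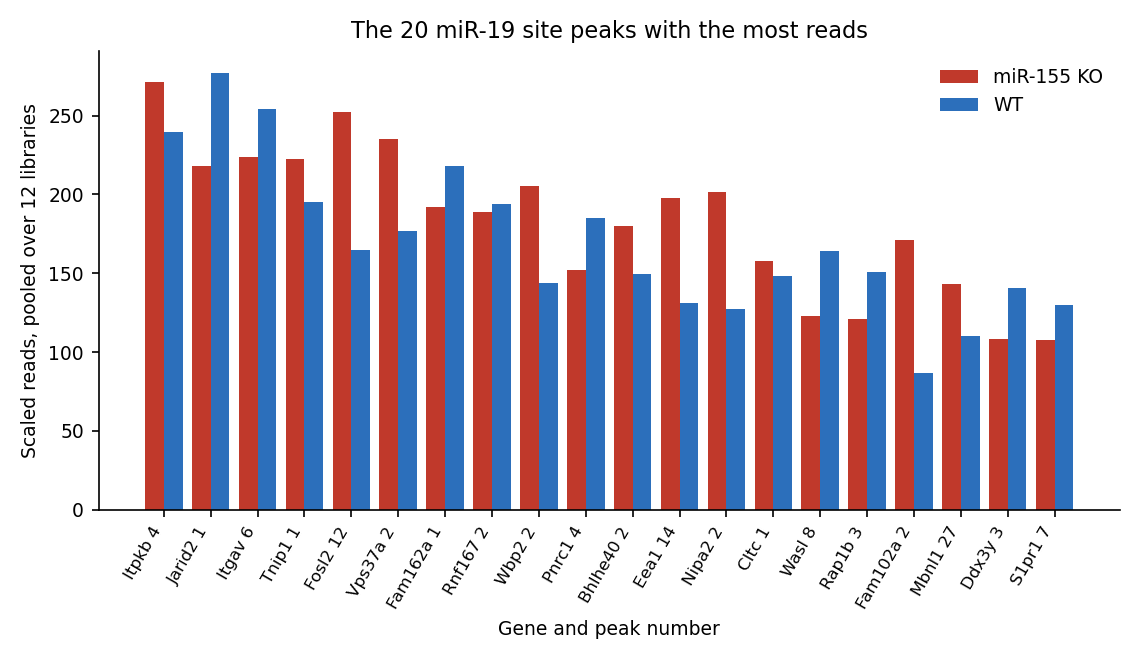
Bars give scaled reads, pooled over 12 libraries, in miR-155 KO (red) and WT (blue) cells for the 20 miR-19 site peaks with the most reads, each labelled by gene and peak number; there are no error bars because the deposited values are pooled. In all 20 both genotypes had over 86 reads, and the taller bar is KO in some and WT in others.

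Loss of miR-155 left no member past the test. After Benjamini-Hochberg adjustment of the authors' deposited p-values across the 14634 peaks, 0 members were lower and 0 higher in KO than in WT cells at an adjusted p below 0.05. Over all peaks 0.574% were called lower (84 peaks) and 0.0273% higher (4 peaks). At an unadjusted p below 0.05 in the authors' deposited table, 8 members were lower and 3 higher in KO cells, 2.48% of members, against 2.72% of all peaks lower, 1.48% higher and 4.2% in either direction. Of the members, 269 had at least 17.6 reads, the fewest of any called peak. The smallest p among members was 0.00304, that of peak 6 of Igf2r in the authors' deposited table, where the largest p of a called peak was 0.000237. Igf2r encodes the receptor that carries lysosomal enzymes, and its peak was listed at 0 reads in KO cells and had 14.3 in WT cells, with an adjusted p of 0.266. The best-read of the 8 lower peaks was peak 1 of Zdhhc18, a palmitoyltransferase gene, with 59.3 reads in KO and 105 in WT cells. The 3 higher were peak 1 of Atp11a, a phospholipid flippase gene, with 48.4 in KO and 17.7 in WT cells, peak 2 of Vps37a, and peak 1 of AI837181, with 32.6 in KO and 13.5 in WT cells.

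The deposited log2 ratio is WT over KO, so a positive value means fewer reads in KO cells. Its median over members was 0.17 (quartiles -0.43 and 1.04), against 0.20 (-0.61 and 1.33) over all peaks. Medians for the cluster families were 0.18 for miR-17, 0.19 for miR-25/92 and -0.014 for miR-18, whereas miR-155 site peaks had 3.16. Of the members, 252 had fewer and 192 more reads in KO than in WT cells. The ratio includes a pseudocount of 1, and members with few reads set its spread. Among the 101 members under 10 reads, 49 were listed at 0 in KO cells and 18 in WT cells, and the median ratio was 1.41, against 0.98 over all peaks of that depth. With 25 to 50 reads the median was 0.04 in members and 0.09 in all peaks, and with 100 or more it was 0.04 and -0.10. The interquartile range narrowed over the same depths, to 0.74 in members with 100 or more reads, against 3.69 in those under 10.

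Over the 150 members with 50 or more reads the median ratio was 0.04 (quartiles -0.37 and 0.34), and 68.7% of them were within 1.5-fold, against 64.3% of all peaks of that depth. The 55 miR-155 site peaks of that depth had a median of 3.67. The deposited reads of members thus lay at nearly equal levels in the genotypes where depth was highest, while the miR-155 site peaks had far fewer in KO cells. The 5 highest and 5 lowest ratios among members with 20 or more reads came from peaks with up to 66.0 reads over both genotypes. Peak 1 of Efr3a, a plasma membrane scaffold gene, had 0.634 reads in KO and 19.8 in WT cells, and peak 1 of Aftph, a gene of clathrin traffic, had 7.50 in KO and 45.5 in WT cells. Other members at this end were peak 3 of Mobkl1a, with 1.11 in KO and 19.3 in WT cells, peak 3 of Pds5b, a cohesin regulator gene, with 1.27 in KO and 19.03 in WT cells, and peak 2 of Prpf18, a splicing factor gene, with 3.0 in KO and 19.2 in WT cells. In the other direction, peak 1 of Fosl1, an AP-1 subunit, had 23.3 in KO and 2.93 in WT cells, and peak 2 of the cytokine gene Lif had 34.8 in KO and 5.37 in WT cells. Peak 3 of Klf13 had 42.2 in KO and 14.5 in WT cells and peak 1 of Fam126a had 19.3 in KO and 0.822 in WT cells. None of these passed the test, and with pooled values it cannot be told whether 1 library carried a difference.

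**Figure D3:**
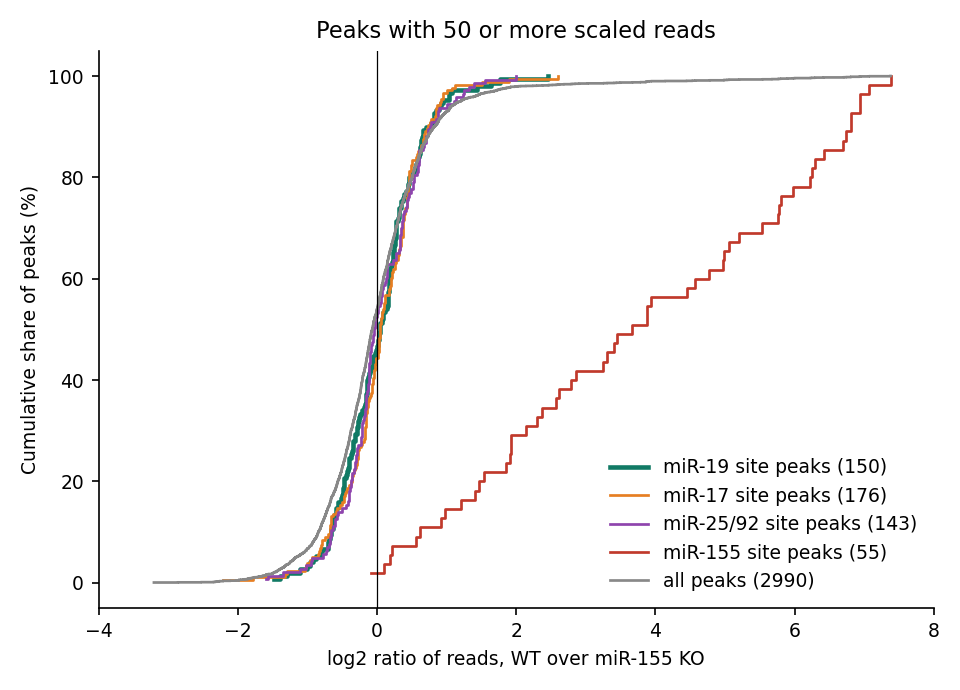
Cumulative share of peaks (%) by log2 ratio of scaled reads, WT over miR-155 KO, for peaks with 50 or more reads; positive values mean fewer reads in KO cells. The curves of the 150 miR-19, 176 miR-17 and 143 miR-25/92 site peaks rise together near 0, and that of the 55 miR-155 site peaks lies far to the right, with a median of 3.67.

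The members comprised 170 8mers, 170 7mer-m8 and 104 7mer-A1 sites. A single site was present in 441 members and 2 sites in 3, peak 1 of Cnot4, peak 3 of Skil and peak 1 of Tor1b. The classes had nearly the same median reads: 26.9, 27.1 and 26.04. The median log2 ratio, WT over KO, was 0.23 for 8mers, 0.16 for 7mer-m8 and 0.04 for 7mer-A1 sites. Among members with 50 or more reads these medians were 0.15, 0.01 and -0.02 over 60, 64 and 26 peaks. The 8mer share of peaks with a miR-19 site was 38.1%, within the range of 16.3% to 45.6% over the 16 other families searched. After the word TTTGCAC the next base was A in 49.7%, T in 40.9% (139 of 340), C in 6.76% and G in 2.65%. The share of T after the corresponding word ran between 17.9% and 40.5% in the other families, so miR-19 stood at the top of that range, next to miR-146 with its 42 peaks. The word TTTGCACTTT, in which a miR-17 match overlaps the miR-19 match, has T at this place and stood in 29 of all peaks. The share of T without those peaks was not computed.

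Sites lay close to the centre of the peak. The median distance from the peak centre to the seed match was 1 nt (quartiles -3.5 and 8.13, positive towards the 3' end), and 69.1% of members had the match within 10 nt. With 50 or more reads that share was 76.7%. Peaks of miR-17 and miR-25/92 had 66.5% and 70.9% within 10 nt, and the miR-19 words read backwards on the other strand, which stood in 288 peaks and overlap miR-25/92 site letters, had 61.5%. The matches of 420 members lay within the peak itself, and those of 24 reached into the 6 nt of sequence deposited on each side. Members were 62.0% A and U, against 62.6% over all peaks. The upstream 15 nt held TGCA, the match to bases 13 to 16 of miR-19, in 39 of 370 members with a full window, 10.5%. The same word TGCA stood in the upstream window of 7.82% of miR-17, 4.82% of miR-25/92 and 6.82% of miR-155 site peaks with a full window. Matches to bases 13 to 16 of those microRNAs were not searched. A match of this kind is a description of letters and not a sign of pairing.

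**Figure D4:**
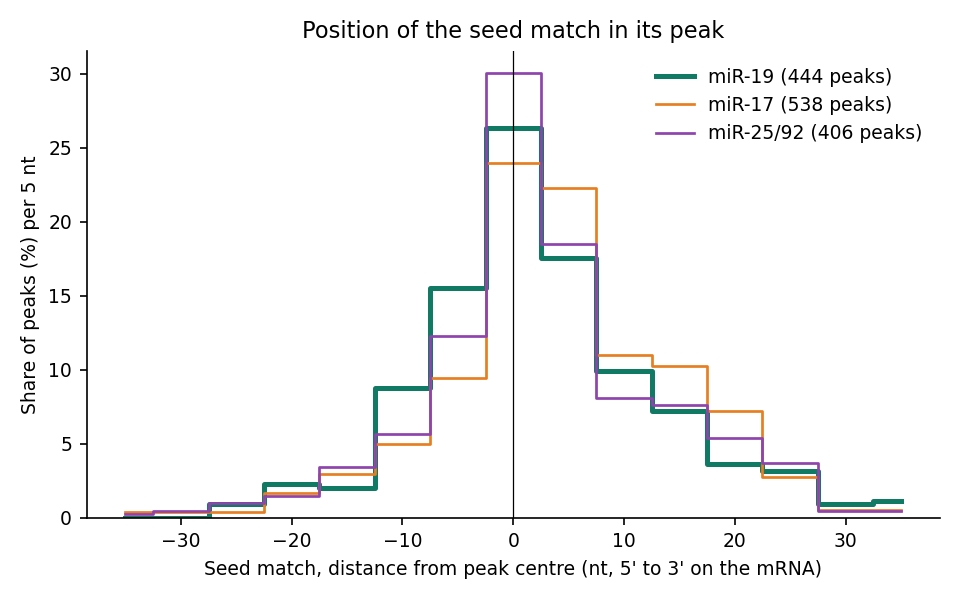
Share of peaks (%) per 5 nt by distance of the seed match from the peak centre (nt, positive towards the 3' end of the messenger RNA), for 444 miR-19, 538 miR-17 and 406 miR-25/92 site peaks. All 3 distributions have their highest bin at the centre; 3, 6 and 4 peaks lie outside the range drawn.

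Members began at a median of 772 nt from the start of the 3' UTR (quartiles 280 and 1673), against 880 nt (345 and 1821) for all peaks, and 9.01% began within the first 100 nt, against 7.54%. On GRCm38, 431 of 444 members could be placed, 429 of them in an annotated 3' UTR and 424 in the last exon. The site of Map3k3 was in coding sequence and that of Plaa in a transcript without a coding region in that annotation. Most genes had a single member: 386 had 1, 26 had 2 and 2 had 3. Atxn1, the ataxin 1 gene, had 3 members that together held 127 reads in KO and 154 in WT cells, 30.6% of its reads. Taok1, a kinase gene, also had 3, with 120 reads in KO and 135 in WT cells, 14.0% of its reads. Of the 389 members in genes with several peaks, 110 were the most-read peak of their gene, 28.3%, against 19.1% of all such peaks, 29.8% of miR-17 and 34.4% of miR-25/92 site peaks. In 71 of the 357 genes with members and other peaks the members held more than 50% of the gene's reads, and the median share was 19.7%.

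The other peaks of the same genes gave a within-transcript comparison. They included miR-155 site peaks where a gene had them, as in Fosl2 and Jarid2. Values without those peaks were not computed. In 202 genes in which members and other peaks each had 20 or more reads, the median log2 ratio, WT over KO, was 0.04 for members and 0.05 for the other peaks. The median difference of members minus other peaks was -0.0021, with quartiles of -0.52 and 0.60. Pearson's r between both ratios across these genes was 0.17 and Spearman's rank coefficient 0.16, as a description over genes that share the same pooled libraries. Members therefore differed from other peaks of their own genes in both directions by similar amounts.

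Sites of miR-19 and miR-155 also occurred in the same 3' UTR. In 12 genes a member stood in the same 3' UTR as a miR-155 site peak that was called lower in KO cells. The miR-155 site peaks were chosen for that call, so their values are given as a description: 48.0 reads in KO and 1096 in WT cells over the 12. The miR-19 site peaks of these genes had 637 in KO and 678 in WT cells. The median log2 ratio of the miR-19 site peaks was 0.50, with a range of -1.71 to 3.53, and 0 of 12 was called. In the 12 pairs, 9 miR-19 site peaks had fewer and 3 more reads in KO than in WT cells.

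The nearest pairs were almost adjacent. In Usp14, a deubiquitinase gene, the miR-19 site peak lay 11 nt from the miR-155 site peak and had 27.1 reads in KO and 39.1 in WT cells, while the miR-155 site peak was listed at 0 in KO cells and had 18.4 in WT cells. In Zfp518a the gap was 12 nt, and the miR-19 site peak had 20.4 reads in KO and 44.0 in WT cells, beside 1.5 in KO and 77.7 in WT cells at the miR-155 site. In Jarid2 the gap was 32 nt, with 218 in KO and 277 in WT cells at the miR-19 site and 4.46 in KO and 129 in WT cells at the miR-155 site. In these 3 pairs the miR-19 site peak had reads in both genotypes, fewer in KO cells. In Zfp654 the gap was 92 nt and the miR-19 site peak went the other way, with 11.9 in KO and 2.93 in WT cells, beside 4.43 in KO and 82.1 in WT cells at the miR-155 site. Farther apart, in Fosl2 the gap was 711 nt and the miR-19 site peak had 252 in KO and 165 in WT cells, whereas the miR-155 site peak was listed at 0 in KO cells and had 166 in WT cells. In Rc3h2, which encodes Roquin-2, a protein that promotes decay of T cell messenger RNAs, the gap was 718 nt, with 11.1 in KO and 21.9 in WT cells at the miR-19 site and 0.634 in KO and 123 in WT cells at the miR-155 site. In Rnf6, an E3 ligase gene, the thinly read miR-19 site peak was listed at 0 in KO cells and had 10.6 in WT cells, and the miR-155 site peak had 13.9 in KO and 162 in WT cells. Over all 40 genes with a member and any miR-155 site peak, 42 members had a median ratio of 0.19, against 0.17 for the other 402 members.

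**Figure D5:**
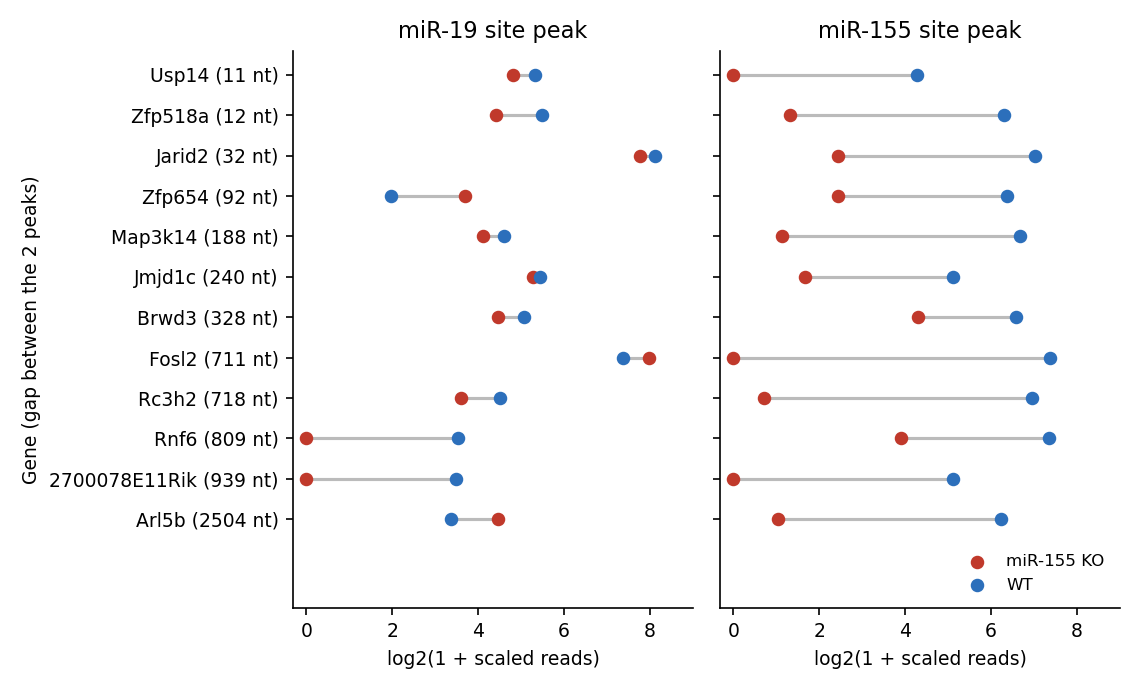
Scaled reads as log2(1 + scaled reads) in miR-155 KO (red) and WT (blue) cells for the miR-19 site peak (left) and the called miR-155 site peak (right) of 12 genes with both in a 3' UTR, ordered by the gap between the peaks in nt. On the left the red point is to the left of the blue in 9 genes and to its right in 3; on the right, where genes were chosen for the call, it is to the left in all 12.

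A miR-17 site was the commonest further site in members. Of the 444 members 116 held a site of another family, and 45 of these a site of miR-17, 10.1% of members, while 3.71% of all peaks held one. Those 45 were 8.29% of the peaks with a miR-17 site. The miR-19 match TTTGCAC ends in GCAC, the first 4 letters of the miR-17 match GCACTTT. The choice of members thus itself raised the miR-17 share, through the overlapping words counted below. In 31 of these 45 members the words overlapped, so 10.1% against 3.71% does not show an excess of separate miR-17 sites. Sites of miR-25/92 were in 4 members, 0.901%, against 2.77% of all peaks. For the other families searched, apart from miR-155, which the choice of members left out, the share of members was between 0.225% and 2.48%. Most of them were likewise rarer in members than in all peaks, such as miR-15/16 (2.03% and 4.58%) and miR-27 (1.80% and 3.59%). Sites of miR-18 (2.03% and 0.581%), miR-21 (1.80% and 1.60%) and miR-146 (0.676% and 0.588%) were commoner in members. The miR-18 match GCACCTT also begins with GCAC. At the level of genes, 24.6% of member genes had a miR-17 site peak (11.9% of all genes) and 14.0% a miR-25/92 site peak (9.15% of all genes). Sites of miR-25/92, like those of most families searched, were thus rarer in the members themselves but commoner in their genes. Higher shares in member genes were found for each of the 16 other families searched and so were not particular to the cluster. For example, miR-23 site peaks were in 20.8% of member genes (9.87% of all genes), miR-21 site peaks in 10.9% (5.33%) and miR-26 site peaks in 13.3% (6.75%). A gene with more peaks has more places for a site of any family. Shares among genes with equal numbers of peaks were not computed, so these values do not show shared targeting. In 31 of the 45 peaks the miR-17 and miR-19 words overlapped, and in 28 they formed the joined word TTTGCACTTT, in which the miR-19 match TTTGCAC and the miR-17 match GCACTTT share 4 letters. Searched on the strand of the messenger RNA, this word stood in 29 of all peaks, 0.198%. Overlapping letters mean that both microRNAs cannot pair with the word at the same time, so which of them AGO2 carried there cannot be told apart.

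The 28 members with the joined word lay in 28 genes and had a median of 72.3 reads, against 24.8 for the other 416 members. Per nt the medians were 1.79 and 0.560, and 19 of the 28 had 50 or more reads, against 131 of the 416. They held 1043 reads in KO and 1259 in WT cells, with a median log2 ratio, WT over KO, of 0.40, and none was called. Peak 4 of Laptm4a, a lysosomal membrane protein gene, had the most, 95.3 in KO and 108 in WT cells. Peak 1 of Tgfbr2, the type II receptor of TGF-beta, had 60.8 in KO and 91.4 in WT cells, and peak 3 of Smad5, a transducer of BMP signals, had 45.1 in KO and 52.2 in WT cells. Peak 1 of Cnot4 held 2 miR-19 sites, 8 nt apart, and had 69.6 in KO and 104 in WT cells. Cnot4 encodes an E3 ligase that acts with the CCR4-NOT deadenylase complex. Peak 1 of Pdcd1lg2, the PD-1 ligand PD-L2, had 66.4 in KO and 84.2 in WT cells. Peak 1 of Eif2c1, the older symbol of Argonaute 1, had 39.2 in KO and 29.3 in WT cells. This set was chosen after its letters and reads were seen.

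Of 34 genes listed as miR-19 targets from earlier work, 25 had any peak and 15 had a member, 17 members in all. They held 583 reads in KO and 662 in WT cells, and 13 had fewer and 4 more reads in KO than in WT cells. Their median log2 ratio was 0.25, against 0.14 over all 177 peaks of the listed genes, and 0 members were called. Several are genes that restrain cytokine or NF-kB signalling. Peak 3 of Socs1, an inhibitor of JAK kinases, had 105 reads in KO and 106 in WT cells, 75.4% of the gene's reads. Peak 1 of Cyld, a deubiquitinase that limits NF-kB, had 65 in KO and 54.4 in WT cells, and peak 13 of Tnfaip3, which encodes A20, had 37.0 in KO and 37.2 in WT cells. The reads of these 3 peaks were almost equal in the genotypes. Peak 4 of Il6st, the shared signalling chain of IL-6 family receptors, had 43.2 in KO and 48.0 in WT cells, and peak 2 of Socs3, another cytokine signalling inhibitor, had 29.1 in KO and 32.4 in WT cells.

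Further members of the list were peak 6 of Atxn1, with 71.2 reads in KO and 86.2 in WT cells, and its peaks 17 and 14, with 38.5 and 17.04 in KO and 45.9 and 22.4 in WT cells. Peak 2 of Rap2c, a small GTPase, had 38.2 in KO and 47.2 in WT cells, and peak 1 of Wdr1, a factor of actin disassembly, had 29.9 in KO and 44.1 in WT cells. The other listed members were more uneven or sparse. Peak 1 of Rhob, a small GTPase that acts on the cytoskeleton, had 27.2 in KO and 13.9 in WT cells, peak 2 of Runx3, a transcription factor, had 15.2 in KO and 7.73 in WT cells, and peak 2 of the cytokine gene Tnf had 0.868 in KO and 16.5 in WT cells. Peak 2 of Ppp2r5e, a phosphatase subunit, was listed at 0 in KO cells and had 4.91 in WT cells, while peak 4 of Kat2b, an acetyltransferase, had 4.90 in KO cells and was listed at 0 in WT cells. In 10 listed genes there were peaks but no member. Among them Bcl2l11, which encodes the death-promoting protein BIM, had 31 peaks with 1301 reads in KO and 1019 in WT cells, and Ccnd2, cyclin D2, had 28 peaks with 1298 in KO and 1374 in WT cells. Others were Cul5, Klf10, Nedd4, Prkaa1, Runx1, Tnfrsf1b and Tsc1.

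Among genes of T cell receptor and costimulatory signalling 26 of 35 had a peak and 5 a member, whose median log2 ratio, WT over KO, was -0.23; list medians below are the same quantity. Peak 6 of Cd69, an early activation marker, had 50.03 reads in KO and 76.6 in WT cells, and peak 18 of Cblb, a ligase that raises the activation threshold, had 19.2 in KO and 13.3 in WT cells. Peak 3 of Cd4, the coreceptor that defines these cells, had 14.9 in KO and 12.5 in WT cells. For cytokine receptors, JAKs, STATs and SOCS proteins 31 of 35 genes had a peak and 7 a member, with a median of 0.02. Peak 8 of Il12rb2, the signalling subunit of the IL-12 receptor, had 79.8 in KO and 76.8 in WT cells, and peak 2 of Il7r, the survival cytokine receptor of T cells, had 51.9 in KO and 48.6 in WT cells. Both divided their reads evenly between genotypes. For NF-kB and its inhibitors 16 of 28 genes had a peak and 5 a member, with a median of -0.19, and 4 of the 5 are genes that restrain the pathway: Cyld, Otud7b, Tnfaip3 and Tnip1. The remaining member was in Map3k14, which encodes the kinase NIK.

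Transcription factors of helper T cells had 24 of 29 genes with a peak and 7 with a member. All 7 had more reads in KO than in WT cells, 462 against 299 in sum, with a median log2 ratio, WT over KO, of -0.63, and 0 were called. All 262 peaks of the listed genes had a median of -0.03. Besides Fosl2, peak 22 of Ikzf1, the Ikaros factor, had 84.7 in KO and 54.5 in WT cells, and peak 10 of Hif1a, the hypoxia factor, had 70.4 in KO and 43.6 in WT cells. The others were in Irf4, Rora, Runx3 and Satb1. For TGF-beta, BMP and SMAD genes 17 of 23 had a peak and 5 a member, with a median of 0.23. Beside Tgfbr2 and Smad5, peak 6 of Smurf2, a ligase that degrades receptors of the pathway, had 64.9 in KO and 76.3 in WT cells.

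The microRNA pathway list had 14 of 22 genes with a peak and 8 with a member, a median ratio of -0.34 over members and 0.24 over all 155 peaks of its genes. Peak 4 of Tnrc6a and peak 7 of Tnrc6c, GW182 proteins that link AGO2 to deadenylation, had 64.2 and 48.9 in KO and 36.2 and 55.5 in WT cells. Peak 3 of Cnot7, a deadenylase, had 48.9 in KO and 40.2 in WT cells. Messenger RNAs of AGO2's own pathway were thus among those with reads at miR-19 matches, more in KO cells for some and more in WT cells for others. Chromatin regulators had 33 of 40 genes with a peak and 9 with a member, with a median of 0.49. Jarid2 had the most reads, and peak 6 of Kdm5b and peak 3 of Kdm2a, histone demethylases, had 53.4 and 24.6 in KO and 44.9 and 45.3 in WT cells. For ubiquitin ligases and deubiquitinases 24 of 30 genes had a peak and 7 a member, with a median of 0.08.

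PI3K, AKT and mTOR genes had 21 of 32 with a peak and 3 with a member, with a median of 1.65. Peaks 27 and 12 of Rictor, a subunit of mTORC2, had 18.8 and 0 in KO and 16.3 and 9.19 in WT cells. Cell cycle genes had 23 of 30 with a peak and 4 with a member, with a median of 1.03. Peak 6 of Wee1, a kinase that delays mitosis, had 4.83 in KO and 20.3 in WT cells, and peak 9 of Ccne2, cyclin E2, had 9.79 in KO and 2.58 in WT cells. None of these 4 peaks reached 50 reads over both genotypes. For apoptosis and the BCL2 family 15 of 25 genes had a peak and 4 a member, with a median of 0.57. Peak 5 of Apaf1, the core of the apoptosome, had 25.4 in KO and 10.2 in WT cells, peak 42 of Trp53inp1 had 6.75 in KO and 23.9 in WT cells, and peak 12 of Cflar, an inhibitor of death receptor signalling, had 13.4 in KO and 8.87 in WT cells. Among the marker genes, members were in Cd4, Cd69 and Tfrc, whose peak 7 had 31.4 in KO and 39.1 in WT cells. No member of any list was called.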

How the data were processed

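AGO2 HITS-CLIP data from 12 miR-155 KO and 12 WT libraries, labelled biological replicates, were used as a table of 14634 peaks in 3' UTRs. Per the submitters' processing notes, the tools were Bowtie 0.12.7 and the build mm9. Peak calling, read scaling, handling of duplicates and the computation of p-values remain not given in the sources used here. As named per the file headers, the authors' deposited log2 columns give reads in WT, reads in KO and the ratio of WT over KO, and a p-value column gives their deposited test of differential binding. The log2 values, 1 per genotype with exact zeros, were taken to be pooled and to include a pseudocount of 1, which no header states, so scaled reads were computed as 2 to that power minus 1. Library depth is unknown, and no counting interval is given. What spread between libraries the p-values reflect is unknown too; 4.2% of them were below 0.05 and 9.03% above 0.95.

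Members held a match to bases 2 to 8 of miR-19b-3p, or to bases 2 to 7 followed by A, and no such miR-155 site. The other 16 families were searched likewise. The members and the gene lists were chosen with earlier results of these data known. Reads, ratios, positions and base composition were described by counts and medians. Benjamini-Hochberg adjustment was made across the whole table, and an adjusted p below 0.05 was called. The fit over libraries that a replicated table would allow could not be made. Members named were those past the threshold, the 20 with the most reads, the 5 highest and 5 lowest ratios among those with 20 or more reads (1 per gene), all members of known miR-19 targets, genes with 3 members, and up to 3 members per other list. Some named by this rule are left unreported. Others, such as joined-word peaks, those with an unadjusted p below 0.05 and those beside miR-155 sites, were chosen after their values were seen. Code was tested on simulated data. Python 3.11.15, NumPy 2.4.6, pandas 2.3.3, SciPy 1.17.1 and Matplotlib 3.10.9 were used. Sequences on chromosome 18 are not printed.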

Additional observations from a re-analysis of the deposited data

How the results depend on the processing

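No paired analysis was possible because the deposited table pools the libraries of a genotype, and for the same reason no replicate could be left out. No member was called by the authors' p-values at adjusted thresholds of 0.01, 0.05 or 0.1, with adjustment over peaks of 10 or more reads, among 8mers, with sites within the peak alone, with the 2 peaks that also hold a miR-155 site kept, or, added after seeing the data, with adjustment over peaks with reads in both genotypes; 11 members had an unadjusted p below 0.05. The median log2 ratio, WT over KO, of 0.17 moved to 0.039 with 50 or more reads, to -0.022 when centred on the median of all peaks, and, added after seeing the data, to 0.064 over members with reads in both genotypes. The first and the last of these leave out thinly read members and the second subtracts 0.20 by construction. Under the other 7 alternatives, of which 1 member per gene was also added after seeing the data, it lay between 0.08 and 0.23. The share of all reads in members was between 3.23% and 3.33% under each alternative, against 3.32%. Of 80 named members, 74 had reads in both genotypes and none of them changed sign without the pseudocount, and 10 of the 80 did so under centring. Precision is limited by thin reads and by pooling.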

Other observations

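Some members held shorter matches to miR-155 that the choice of members allowed. The 6-nt match GCATTA stood in 3 members, with a median log2 ratio, WT over KO, of 1.04, and the offset match AGCATT in 16 members, with a median of 0.18, against 0.17 over all members. No member with either match was called by the authors' deposited p-values. A miR-17 site lay 8 to 60 nt from the nearest miR-19 site of 20 members, a miR-25/92 site of 6 members and a miR-155 site of 3 members.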
